A study of Homo sapiens with 12 samples.

Results

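The genes described here are 38 genes of the DNA damage checkpoint and of homologous recombination, picked by symbol from a written list. They run from the kinases ATM and ATR through the BRCA proteins to the nucleases that cut joined DNA molecules. All 38 were found, each in 1 of the 19293 rows of the count table, and all 38 passed the filter on low counts that left 12160 genes for testing. RNA was sequenced from HT1080, an established human fibrosarcoma cell line, in 12 libraries of 3 per group. The combination group received IFNγ (10 ng/ml) and 20 Gy of radiation, the irradiated group 20 Gy alone, the IFNγ group 10 ng/ml IFNγ alone, and the untreated group neither. IFNγ is the type II interferon, which acts on cells through JAK kinases. Per the labels' protocols, cells were harvested after 24 h. The labels give neither the order in which the combined treatments were applied nor whether the 3 libraries of a group are separate cultures, and p-values reflect only how far these 12 libraries spread, which may be technical. All groups are 1 transformed cell line, and no normal fibroblast was compared.

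When DNA breaks, the MRE11-RAD50-NBN complex binds the ends and recruits ATM, which phosphorylates the histone variant H2AX around the break. The adaptor MDC1 and the ubiquitin ligases RNF8 and RNF168 then spread the signal over the chromatin. Nucleases and helicases trim the ends to expose a strand of DNA, which activates ATR and CHEK1 and onto which BRCA2, helped by BRCA1, BARD1 and PALB2, loads the filament that searches for a matching template. Recombination mainly uses the sister chromatid as a template. Many recombination genes are transcribed mainly in S and G2 phase under E2F and the factors that bind CCAAT and CHR promoter elements.

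Total counts per library ran between 10254314 and 10956421 in combination, 9675126 and 10084853 in irradiated, 10263803 and 11010656 in IFNγ and 9762772 and 10550510 in untreated cells. The labelled identity was checked on markers: the mesenchymal genes VIM, FN1, CD44 and SPARC were each at least 643 CPM (counts scaled to 1000000 per library with factors from the trimmed mean of M-values, TMM) in every library, and the 8 listed mesenchymal genes summed to between 8927 and 10188 CPM. THY1 was at most 0.184 CPM. The other 7 passed the filter, and against untreated cells 4 were called lower and 1 higher in IFNγ cells. In irradiated cells 1 was called lower and 5 higher, and in combination cells 2 lower and 3 higher. The part of these changes in the results was not tested. Over all genes tested, 14.1% were called lower and 15% higher in IFNγ cells, and 28.2% and 27.9% in irradiated cells. In combination cells 31.2% were called lower and 30.9% higher. These shares apply to all counts of called markers in this paragraph. The 7 listed epithelial genes summed to 571 to 588 CPM in combination, 399 to 417 CPM in irradiated, 519 to 531 CPM in IFNγ and 384 to 410 CPM in untreated libraries, nearly all of it from the keratins KRT8 and KRT18, while EPCAM, CDH1 and ESRP1 were at most 0.583 CPM. Of the 3 epithelial genes that passed the filter, 3 were called higher in combination, 2 in irradiated and 2 in IFNγ cells, each against untreated cells, and their part in the results was not tested. The 5 endothelial markers summed to at most 3.79 CPM. Irradiated replicate 2 stood apart in some scarce transcripts. There 6 immune cell markers summed to 5.22 CPM, and to between 0.188 and 1.19 CPM in the other libraries. The IFNγ-inducible GBP5 had 59 counts there against 10 and 3 in the other irradiated libraries. The source of these counts was not tested. Without irradiated replicate 2, 2 of the 38 genes were still called higher and 26 lower in irradiated cells, against 2 and 27 with it. All 10 listed p53 target genes were called higher in irradiated cells, and all 8 listed IFNγ response genes in IFNγ cells.

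Promoter stretches of 4 of these genes are shown because their transcripts moved together or apart, CLSPN, TOPBP1 and H2AFX lower and CHEK2 higher in irradiated cells. Each is written 5′ to 3′ on the gene's strand, from RefSeq (GRCh38.p14). Positions count from the annotated start base as 0, and capitals mark the motifs searched on both strands: E2F (TTTCCCGC, TTTCGCGC, TTTGCCGC or TTTGGCGC), CCAAT for NF-Y, CHR (TTTGAA or TTTAAA) and GAS (TTCNNNGAA), the IFNγ-activated site. In these stretches no marked motif overlaps another.
CLSPN, chr1:35769974-35770108, minus strand, -130 to 4: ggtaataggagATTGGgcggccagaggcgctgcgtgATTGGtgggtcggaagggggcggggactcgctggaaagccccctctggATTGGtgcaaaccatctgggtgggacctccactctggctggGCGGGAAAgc
TOPBP1, chr3:133661937-133662071, minus strand, -130 to 4: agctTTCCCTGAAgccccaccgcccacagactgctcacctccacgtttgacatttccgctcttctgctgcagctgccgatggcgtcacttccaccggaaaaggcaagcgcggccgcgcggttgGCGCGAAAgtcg
H2AFX, chr11:119095466-119095635, minus strand, -170 to -1: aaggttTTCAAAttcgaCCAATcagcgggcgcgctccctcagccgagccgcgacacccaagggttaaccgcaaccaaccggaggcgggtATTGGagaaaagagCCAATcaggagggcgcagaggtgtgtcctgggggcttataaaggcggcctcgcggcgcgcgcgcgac
CHEK2, chr22:28741821-28741950, minus strand, -130 to -1: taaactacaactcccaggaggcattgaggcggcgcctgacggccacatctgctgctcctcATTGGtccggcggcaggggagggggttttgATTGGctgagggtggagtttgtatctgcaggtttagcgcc

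The printed stretch of CLSPN holds an E2F word across its start and 3 CCAAT words (read as ATTGG on this strand), that of TOPBP1 an E2F word and a GAS word, that of H2AFX 3 CCAAT words and a CHR word, and that of CHEK2 2 CCAAT words. H2AFX and CHEK2 have 1 more CCAAT word each, upstream of the stretch shown. RefSeq promoters of 300 bases, 250 before and 50 from the start on, were matched for 34 of the 38 genes, and RAD54B, NBN, WRN and RMI2 had no entry. An E2F word was present in 4 of these 34 (11.8%), against 4.44% of 15843 promoters of protein-coding genes, and the 4 were CLSPN, TOPBP1, EXO1 and XRCC2. CCAAT was present in 17 of 34 (50.0%), against 36.4% of all, CHR in 7 (20.6%), against 19.5%, and GAS in 2 (5.88%), against 6.97%. The CCAAT word was in both promoters of the 2 genes called higher in irradiated cells, in 12 of 23 of those called lower and in 3 of 9 not called. These are matches of letters and not measured binding sites.

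Per kilobase of annotated exon, the level of H2AFX in untreated cells was the highest of the 38 at 84.4 CPM per kb, followed by TOPBP1 at 27.5, CLSPN at 19.7 and NBN at 19.6 CPM per kb. The lowest were XRCC3 at 2.19, SLX4 at 1.995 and RAD54B at 1.62 CPM per kb. The exon length pools all annotated transcripts of a gene, which lowers the value of genes with many transcripts. Summed over the 38 genes, the level was 1860 to 1927 CPM in combination, 1712 to 1753 CPM in irradiated, 2394 to 2438 CPM in IFNγ and 2151 to 2215 CPM in untreated libraries. The 4 groups did not overlap in this sum.

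**Figure D1:**
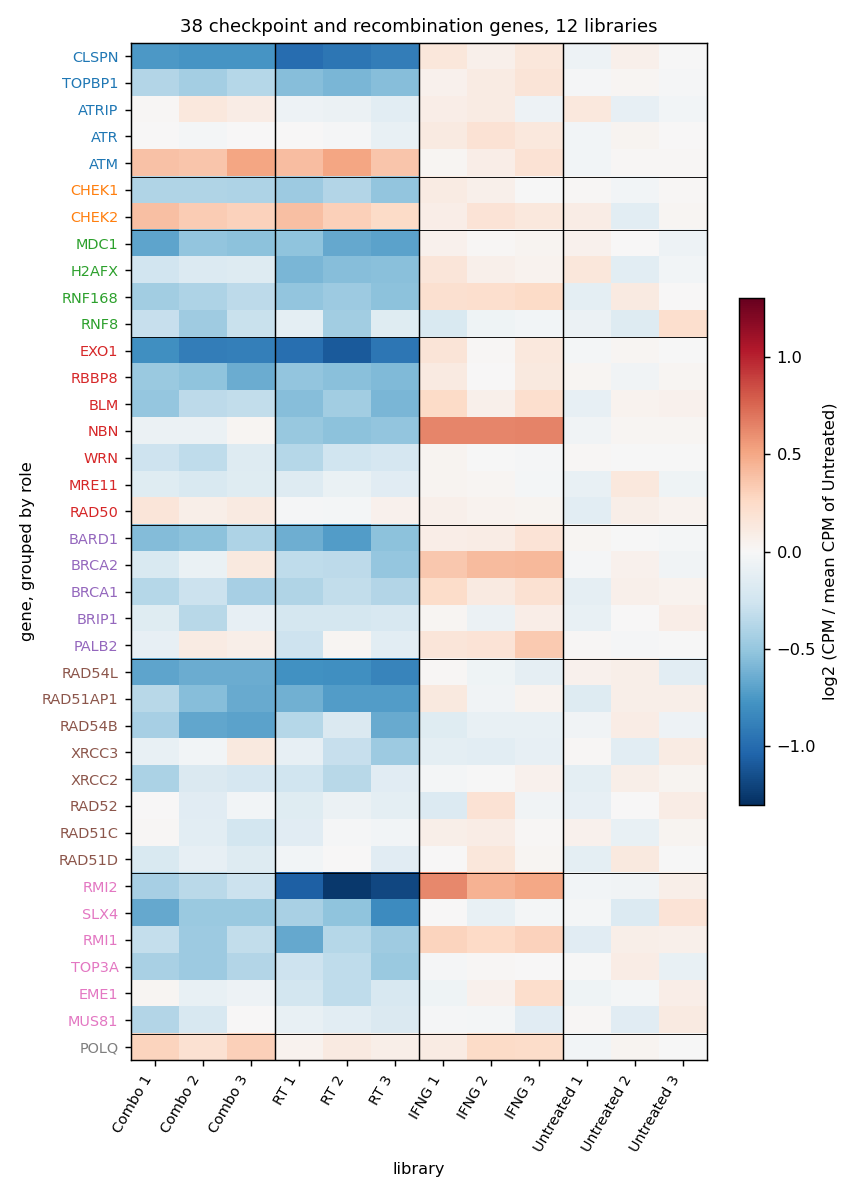
Colour gives log2 of the CPM in each of the 12 libraries (columns) over the mean CPM of the 3 untreated libraries, for the 38 genes (rows) grouped by role, with gene names coloured by role. The irradiated and combination columns are blue for most genes, ATM and CHEK2 are red in them, and NBN, RMI2 and BRCA2 are red in the IFNγ columns.

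Irradiated cells were first set against untreated ones, to ask how radiation alone changed these transcripts. Most of them fell: 27 of 38 were called lower and 2 higher, where 28.2% of all genes tested were called lower and 27.9% higher (edgeR quasi-likelihood test, adjusted p under 0.05 over all 12160 genes). The median log2 fold change of the 38 was -0.36, against 0.0061 over all genes tested. The largest decreases were those of RMI2 (-1.16) and EXO1 (-1.002), the only 2 of the 38 to change at least 2-fold in this comparison, and the increases were those of ATM (0.43) and CHEK2 (0.32). In 24 of the 38 all irradiated libraries lay below all untreated ones, against 30.4% of all genes, and in 3 above them, against 30.4%. DNA replication markers fell in the same libraries, with 13 of 15 listed genes called lower and 1 higher and a summed level of 1304 to 1337 CPM in irradiated against 2225 to 2318 CPM in untreated cells, whereas 12 mitosis markers counted 5 higher and 5 lower. The part of the cell cycle in these results was not tested, and in bulk RNA fewer cells in a phase cannot be told apart from less RNA per cell.

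**Figure D2:**
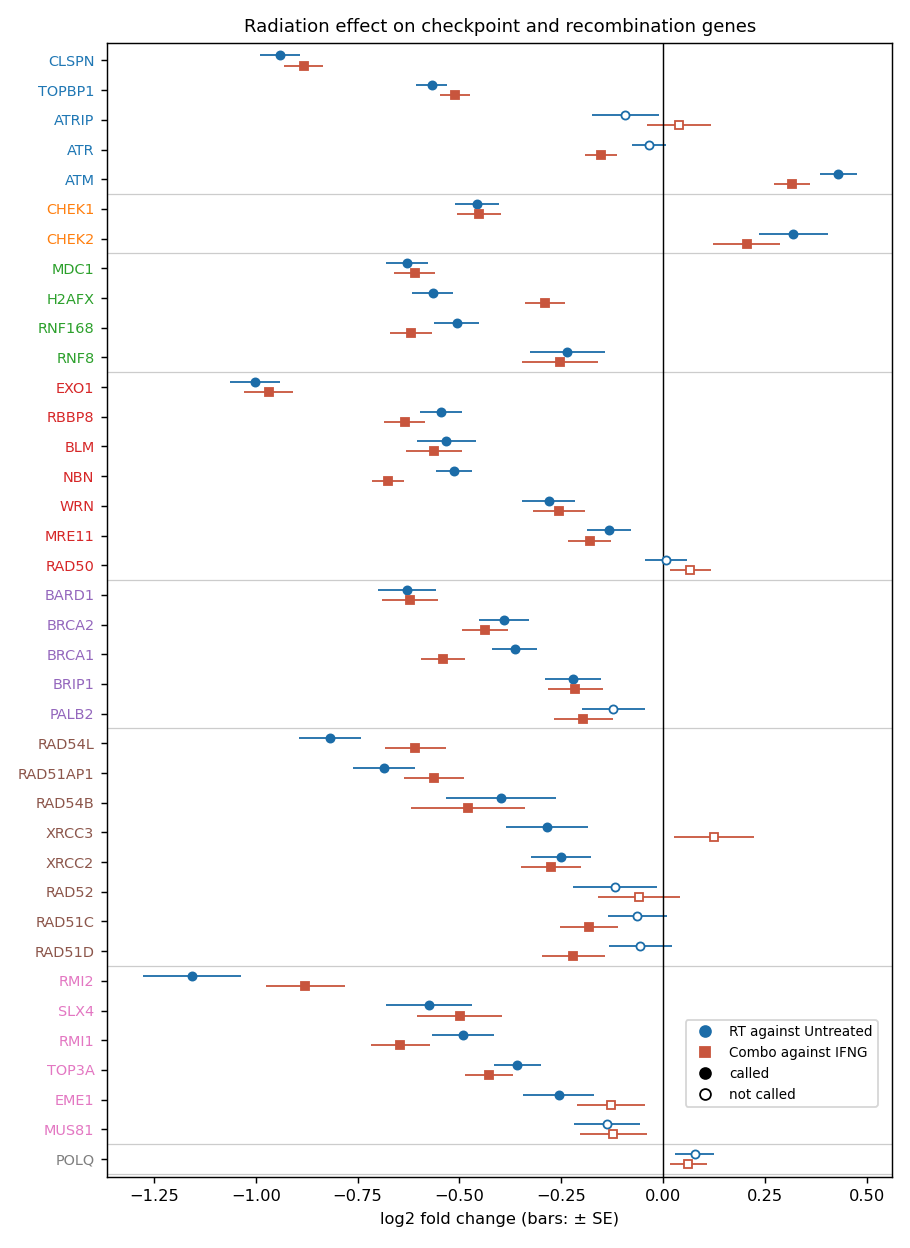
Points give the log2 fold change and bars ± SE of radiation without IFNγ (blue circles) and with IFNγ (red squares) for the 38 genes, grouped by role and ordered within a role by the first. Filled points were called. All filled points lie left of 0 except those of ATM and CHEK2.

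Among the apical kinases and their activators, CLSPN and TOPBP1 fell and ATM rose. CLSPN encodes claspin, the adaptor through which ATR activates CHEK1 at stalled forks. Its level was 53.6, 55.5 and 56.9 CPM in irradiated libraries, against 102, 111 and 106 CPM in untreated ones, and with IFNγ it was 63.4, 62.3 and 62.4 CPM in combination, against 118, 111.6 and 117 CPM in IFNγ libraries. In both comparisons all libraries with radiation lay below all those without it, and the log2 fold changes were -0.94 ± 0.0491 without and -0.88 ± 0.0472 with it (adjusted p = 5.89e-24 and 1.59e-23). TOPBP1, the scaffold that switches ATR on, had 136, 133 and 137 CPM in irradiated against 199, 204 and 199 CPM in untreated libraries, and 154, 148 and 155 CPM in combination against 209, 215 and 226 CPM in IFNγ libraries. It fell by 0.57 ± 0.0381 without and by 0.51 ± 0.0371 with IFNγ on the log2 scale. Both genes carry the E2F word shown above. Among matched promoters this word was in 4 of 23 genes called lower in irradiated cells, 0 of 9 not called and 0 of 2 called higher. Its part in these decreases was not tested.

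ATM, the kinase that answers DNA breaks, went the other way. It had 146, 157 and 141 CPM in irradiated libraries against 107, 111 and 111 CPM in untreated ones, with no overlap, a log2 fold change of 0.43 ± 0.0455 (adjusted p = 8.48e-12). With IFNγ it had 143, 141 and 156 CPM in combination against 112.2, 117 and 125 CPM in IFNγ libraries, a change of 0.32 ± 0.0449. ATR, the sister kinase that answers stalled replication, had 126, 124 and 118 CPM in irradiated against 122, 128 and 125 CPM in untreated libraries and was not called (-0.03 ± 0.0412). With IFNγ it was called lower after radiation (-0.15 ± 0.0404), with 125, 124 and 126 CPM in combination against 136, 143 and 138 CPM in IFNγ libraries. Its partner ATRIP was not called in either comparison (-0.09 ± 0.0817 and 0.04 ± 0.0786), and 27.9% of its exons are shared with TREX1 on the same strand. TREX1 was called lower without IFNγ (-0.37 ± 0.123) and not called with it (-0.06 ± 0.105). The part of this overlap in the values of ATRIP was not tested.

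The effector kinases split. CHEK1, which acts downstream of ATR, had 47.5, 50.6 and 46.4 CPM in irradiated against 66.97, 64.6 and 66.6 CPM in untreated libraries and fell by 0.46 ± 0.0544 on the log2 scale. CHEK2, which acts downstream of ATM, had 23.2, 21.9 and 20.99 CPM in irradiated against 18.9, 16.1 and 17.97 CPM in untreated libraries and rose by 0.32 ± 0.0852 (adjusted p = 0.00113). With IFNγ the same pair had 50.2, 50.5 and 50.1 CPM (CHEK1) and 23.1, 22.2 and 21.7 CPM (CHEK2) in combination, against 70.9, 69.3 and 66.02 CPM and 18.7, 19.9 and 19.5 CPM in IFNγ libraries. Libraries with and without radiation did not overlap for either kinase, in either comparison. CHEK1 then changed by -0.45 ± 0.0532 and CHEK2 by 0.21 ± 0.0827. The call of CHEK2 with IFNγ ended in DESeq2 (0.21), with no filter on low counts (0.19), or without IFNγ replicate 1 (0.20), IFNγ replicate 3 (0.21), combination replicate 1 (0.18) or combination replicate 2 (0.21). HSCB lies opposite 6.70% of the exons of CHEK2 and was not called in either comparison (0.18 ± 0.128 and 0.04 ± 0.122).

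**Figure D3:**
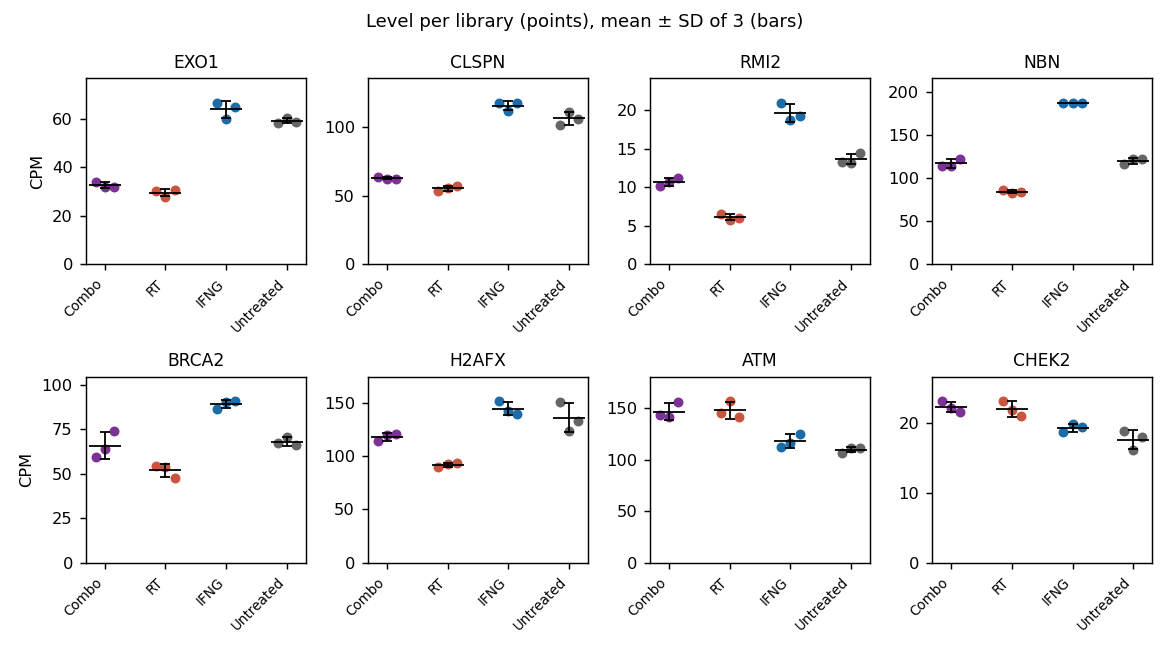
Each panel shows the level of 1 gene in CPM, from 0, in the 3 libraries of each group (points), with the mean ± SD (bars). EXO1, CLSPN and RMI2 are low in both irradiated groups, ATM and CHEK2 are high in them, and NBN, BRCA2 and RMI2 are highest in IFNγ cells.

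All 4 genes that mark chromatin at breaks were called lower in irradiated cells, where 28.2% of all genes tested were. MDC1, the adaptor that reads phosphorylated H2AX, had 67.2, 61.1 and 59.9 CPM in irradiated against 101, 97.3 and 92.4 CPM in untreated libraries (-0.63 ± 0.0514), and 60.2, 67.7 and 67.04 CPM in combination against 100.3, 98.02 and 99.4 CPM in IFNγ libraries (-0.61 ± 0.0506). H2AFX, which encodes H2AX itself, had 89.9, 92.5 and 93.6 CPM in irradiated against 151, 124 and 133 CPM in untreated libraries (-0.57 ± 0.0512). Its decrease was smaller with IFNγ, at 114, 120.4 and 121 CPM in combination against 152, 143 and 140.3 CPM in IFNγ libraries (-0.29 ± 0.0487), a difference tested below. RNF168, the ligase that extends ubiquitin chains on histones, had 54.4, 56.2 and 53.7 CPM in irradiated against 71.4, 84.1 and 77.96 CPM in untreated libraries (-0.51 ± 0.0544), and 56.9, 58.8 and 61.5 CPM in combination against 89.9, 90.3 and 92.2 CPM in IFNγ libraries (-0.62 ± 0.0521). For MDC1, H2AFX and RNF168 every library with radiation lay below every matching library without it. RNF8, the ligase that acts before it, was called by a narrower margin (-0.23 ± 0.0918, adjusted p = 0.0263), and its call ended in DESeq2 (-0.23), or without untreated replicate 3 (-0.12) or irradiated replicate 2 (-0.14). With IFNγ it changed by -0.25 ± 0.0937, and that call ended in DESeq2 (-0.24), or without IFNγ replicate 2 (-0.23), IFNγ replicate 3 (-0.22) or combination replicate 2 (-0.20).

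In end resection 6 of 7 genes fell and 0 rose, where 28.2% of all genes tested were called lower and 27.9% higher. Also 0 rose at an unadjusted p under 0.05 and in DESeq2, but 0 in so few genes does not set the role apart. EXO1, the long-range exonuclease, had 30.04, 27.8 and 30.8 CPM in irradiated against 58.3, 60.4 and 58.9 CPM in untreated libraries, a log2 fold change of -1.002 ± 0.0624 (adjusted p = 1.30e-20). It had 34.03, 31.8 and 32.1 CPM in combination against 66.7, 59.9 and 65.02 CPM in IFNγ libraries (-0.97 ± 0.0599). RBBP8, which encodes CtIP, the partner of MRE11 that starts resection, had 58.2, 56.9 and 56.1 CPM in irradiated against 84.7, 80.7 and 84.5 CPM in untreated libraries (-0.55 ± 0.05203), and 59.5, 57.8 and 53.3 CPM in combination against 90.4, 83.6 and 90.9 CPM in IFNγ libraries (-0.63 ± 0.0513). In both genes no irradiated library reached an unirradiated one, with or without IFNγ. The helicase BLM, which unwinds ends for resection and undoes joint molecules, had 25.9, 27.7 and 25.2 CPM in irradiated against 35.2, 39.2 and 39.6 CPM in untreated libraries (-0.53 ± 0.0726), and 26.9, 30.04 and 30.5 CPM in combination against 45.1, 39.9 and 44.3 CPM in IFNγ libraries (-0.56 ± 0.0689). The helicase WRN fell less (-0.28 ± 0.0646 and -0.26 ± 0.0638).

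The 3 subunits of the MRE11-RAD50-NBN complex moved unequally. NBN, which tethers ATM to the complex, had 85.7, 83.05 and 84.5 CPM in irradiated against 116, 123 and 122 CPM in untreated libraries and fell by 0.51 ± 0.0437 on the log2 scale. With IFNγ it had 114, 114 and 123 CPM in combination against 187, 187 and 188 CPM in IFNγ libraries and fell by 0.68 ± 0.0393. Neither pair of groups overlapped. The nuclease MRE11 changed by -0.13 ± 0.0538 without and -0.18 ± 0.0536 with IFNγ, and the first of these calls ended with library totals (-0.11), in DESeq2 (-0.13), or without untreated replicate 2 (-0.06), irradiated replicate 1 (-0.12) or irradiated replicate 3 (-0.13). RAD50, the subunit that bridges DNA ends, was not called in either (0.0072 ± 0.0508 and 0.07 ± 0.0497), and 79.7% of its exons are shared with another annotated gene on the same strand.

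Of the 5 genes of the BRCA loading complexes 4 fell and 0 rose, where 28.2% of all genes tested were called lower and 27.9% higher. Also 0 rose at an unadjusted p under 0.05 and in DESeq2, but 0 in so few genes does not set the role apart. BARD1, the obligate partner of BRCA1, fell most, with 24.2, 22.7 and 26.05 CPM in irradiated against 38.4, 37.6 and 36.8 CPM in untreated libraries (-0.63 ± 0.0711) and 25.4, 25.9 and 28.5 CPM in combination against 39.9, 40.3 and 42.6 CPM in IFNγ libraries (-0.62 ± 0.0681). BRCA1, a ligase with roles in resection and in loading, had 55.3, 58.2 and 56.1 CPM in irradiated against 67.2, 76.3 and 74.9 CPM in untreated libraries (-0.36 ± 0.0552), and 56.5, 60.2 and 53.8 CPM in combination against 85.9, 78.9 and 83.4 CPM in IFNγ libraries (-0.54 ± 0.0538). BRCA2, the central loading factor, had 54.3, 53.8 and 47.9 CPM in irradiated against 67.3, 70.96 and 65.98 CPM in untreated libraries (-0.39 ± 0.0619), and 59.4, 64.1 and 74.2 CPM in combination against 86.8, 90.5 and 91.00 CPM in IFNγ libraries (-0.44 ± 0.0566). For these genes the libraries with and without radiation did not overlap in either comparison.

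PALB2, the bridge between BRCA1 and BRCA2, had 25.5, 31.4 and 27.99 CPM in irradiated against 31.1, 30.5 and 30.8 CPM in untreated libraries and was not called (-0.12 ± 0.0762). With IFNγ it was called lower (-0.20 ± 0.0719), with 28.6, 33.1 and 32.5 CPM in combination against 34.3, 34.7 and 39.03 CPM in IFNγ libraries, and this call ended with library totals (-0.16), in DESeq2 (-0.19), or without IFNγ replicate 3 (-0.14) or combination replicate 1 (-0.14). The helicase BRIP1, which binds BRCA1, fell by a like amount in both comparisons (-0.22 ± 0.0685 and -0.22 ± 0.0677), and the second call ended without combination replicate 2 (-0.14).

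Of the 8 filament factors 5 fell and 0 rose, where 28.2% of all genes tested were called lower and 27.9% higher. Also 0 rose at an unadjusted p under 0.05 and in DESeq2, but 0 in so few genes does not set the role apart. The translocase RAD54L, which helps the filament invade its template, had 19.5, 19.3 and 18.5 CPM in irradiated against 34.8, 35.3 and 30.6 CPM in untreated libraries (-0.82 ± 0.0769), and 20.8, 21.4 and 21.4 CPM in combination against 33.8, 32.3 and 30.9 CPM in IFNγ libraries (-0.61 ± 0.0751). RAD51AP1, which stimulates the same pairing step, had 26.4, 24.6 and 24.6 CPM in irradiated against 36.2, 42.7 and 42.8 CPM in untreated libraries (-0.69 ± 0.0759), and 31.6, 27.6 and 25.8 CPM in combination against 44.2, 39.2 and 41.9 CPM in IFNγ libraries (-0.56 ± 0.0732). These were the largest decreases of the role, and the libraries with and without radiation did not overlap for either gene. LRRC41 shares 25.1% of the exons of RAD54L on the opposite strand and was itself not called (0.07 ± 0.0517).

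XRCC2, XRCC3, RAD51C and RAD51D belong to related complexes that support the filament. XRCC2 fell by 0.25 ± 0.0744 without and by 0.27 ± 0.0739 with IFNγ on the log2 scale. RAD51C (-0.06 ± 0.0719), RAD51D (-0.06 ± 0.0766) and the annealing protein RAD52 (-0.12 ± 0.102) were not called without IFNγ. With it RAD51C (-0.18 ± 0.0712) and RAD51D (-0.22 ± 0.0765) were called lower and RAD52 was not (-0.06 ± 0.1005). The call of RAD51C ended with library totals (-0.15), in DESeq2 (-0.17), or without IFNγ replicate 1 (-0.16), IFNγ replicate 2 (-0.16), combination replicate 2 (-0.17) or combination replicate 3 (-0.12), and that of RAD51D ended in DESeq2 (-0.21), or without IFNγ replicate 2 (-0.17). The translocase RAD54B was called lower in both comparisons (-0.40 ± 0.135 and -0.48 ± 0.141), and 59.1% of its exons are shared with FSBP on the same strand. Its call without IFNγ ended in DESeq2 (-0.39), or without untreated replicate 2 (-0.34) or irradiated replicate 3 (-0.28). XRCC3 was called lower without IFNγ (-0.29 ± 0.101) and not with it (0.13 ± 0.0979). The first call ended in DESeq2 (-0.28), or without untreated replicate 3 (-0.23) or irradiated replicate 3 (-0.20), and 76.7% of its exons lie opposite exons of KLC1, which changed by -0.10 ± 0.0378.

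Of 6 genes that dissolve or cut joint molecules, 5 fell and 0 rose, where 28.2% of all genes tested were called lower and 27.9% higher. Also 0 rose at an unadjusted p under 0.05 and in DESeq2, but 0 in so few genes does not set the role apart. RMI2, the small subunit that joins BLM, TOP3A and RMI1 into the dissolving complex, had 6.55, 5.72 and 6.03 CPM in irradiated against 13.3, 13.2 and 14.4 CPM in untreated libraries, the largest change of the 38 at -1.16 ± 0.1203 (adjusted p = 3.07e-12). With IFNγ it had 10.1, 10.7 and 11.2 CPM in combination against 20.97, 18.7 and 19.3 CPM in IFNγ libraries (-0.88 ± 0.0972). Its partners fell less. RMI1 had 21.4, 26.2 and 24.6 CPM in irradiated against 30.7, 35.6 and 35.3 CPM in untreated libraries (-0.49 ± 0.0766), and 27.3, 24.4 and 27.2 CPM in combination against 41.4, 40.4 and 41.5 CPM in IFNγ libraries (-0.65 ± 0.0719). The topoisomerase TOP3A changed by -0.36 ± 0.0579 and -0.43 ± 0.05799. All 4 subunits of the complex, BLM included, were called lower after radiation with and without IFNγ.

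SLX4, the platform for structure-specific nucleases, had 12.8, 11.95 and 9.72 CPM in irradiated against 16.9, 15.2 and 19.4 CPM in untreated libraries (-0.57 ± 0.106), and 10.8, 12.3 and 12.3 CPM in combination against 17.2, 16.1 and 16.9 CPM in IFNγ libraries (-0.50 ± 0.105). These libraries did not overlap in either comparison. Of the nuclease pair MUS81 and EME1 the first was not called (-0.14 ± 0.0818 and -0.12 ± 0.0823). EME1 fell without IFNγ (-0.26 ± 0.0873) and was not called with it (-0.13 ± 0.08297). Its call ended in DESeq2 (-0.25), or without untreated replicate 3 (-0.22) or irradiated replicate 2 (-0.22), and 16.4% of its exons lie opposite exons of LRRC59, which changed by -0.23 ± 0.0326. POLQ, the polymerase of an end joining route that competes with recombination, had 83.6, 88.2 and 85.4 CPM in irradiated against 79.4, 83.5 and 80.8 CPM in untreated libraries and was not called (0.08 ± 0.0485), although these libraries did not overlap.

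The radiation effect was measured a second time with IFNγ in both groups, in other libraries. In combination against IFNγ cells 29 of 38 genes were called lower and 2 higher, where 30.4% of all genes were called lower and 30.3% higher, with a median of -0.36 for the 38 and 0.00054 over all genes. DNA replication markers were lower in the same libraries, with 12 of 15 called lower and 1 higher and a summed level of 1543 to 1565 CPM in combination against 2457 to 2554 CPM in IFNγ cells, and their part in the result was not tested. Of the called genes, 25 were lower and 2 higher in both comparisons. XRCC3 and EME1 were called only without IFNγ and ATR, PALB2, RAD51C and RAD51D only with it, and for none of these 6 was the difference between the comparisons called. The sign was the same in 36 of 38 genes (94.7%), and in 85.0% of all 12160 genes tested. Across the 38 genes the log2 fold changes of both comparisons had a Pearson r of 0.92 and a Spearman rho of 0.89, against a Pearson r of 0.86 over all genes tested. These describe agreement over genes measured in the same libraries, which are not independent replicates.

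**Figure D4:**
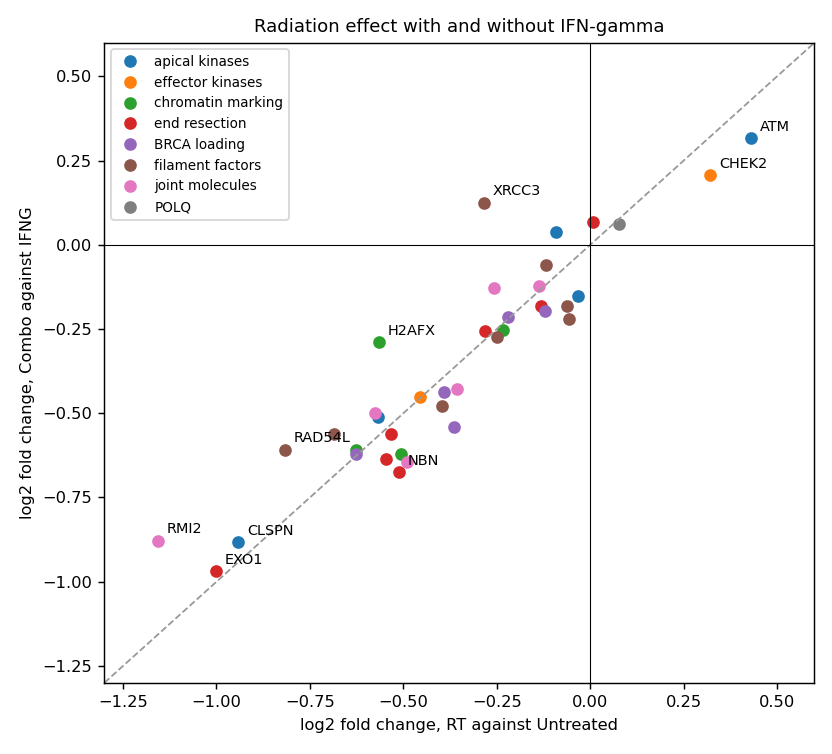
Each point is 1 of the 38 genes, coloured by role, with the log2 fold change of radiation with IFNγ (y axis) against that without it (x axis), from separate libraries, and the dashed line marks equality. Most points follow the line, and H2AFX, RMI2 and XRCC3 lie above it.

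IFNγ cells were set against untreated ones, to ask how the cytokine alone changed these transcripts. The changes were small and upward: 12 of 38 genes were called higher, where 15% of all genes were, and 0 were called lower, where 14.1% of all genes were. Also 0 were lower at an unadjusted p under 0.05 and in DESeq2. The median log2 fold change of the 38 was 0.07, against -0.0052 over all genes tested. The result leans on the scaling: when plain library totals replaced TMM, 6 of the 12 calls were left and the median was 0.02, and the share of higher genes among all called genes was 31.1%, against 51.6% with TMM and 34.2% with upper quartile factors. The 12 genes were spread over the roles except the effector kinases and the 8 filament factors, in which 0 were called, also 0 at an unadjusted p under 0.05 and in DESeq2. With 15% of all genes called higher, 0 calls in so few genes do not set these roles apart. DNA replication markers were higher in the same libraries, with 9 of 15 called higher and 0 lower and a summed level of 2457 to 2554 CPM in IFNγ against 2225 to 2318 CPM in untreated cells, and their part in the result was not tested.

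NBN changed most. Its 187, 187 and 188 CPM in IFNγ libraries stood against 116, 123 and 122 CPM in untreated ones, with no overlap, a log2 fold change of 0.64 ± 0.0393 (adjusted p = 1.50e-20). The other 2 subunits of its complex were not called (0.0099 ± 0.0528 for MRE11 and 0.05 ± 0.0504 for RAD50). RMI2 came next, with 20.97, 18.7 and 19.3 CPM in IFNγ against 13.3, 13.2 and 14.4 CPM in untreated libraries (0.53 ± 0.0927, adjusted p = 6.70e-06). In its complex RMI1 rose by 0.28 ± 0.0687, with 41.4, 40.4 and 41.5 CPM in IFNγ against 30.7, 35.6 and 35.3 CPM in untreated libraries, BLM by 0.18 ± 0.0657, and TOP3A was not called (0.00015 ± 0.0553). BRCA2 rose by 0.39 ± 0.0565, with 86.8, 90.5 and 91.00 CPM in IFNγ against 67.3, 70.96 and 65.98 CPM in untreated libraries. For NBN, RMI2, BRCA2 and RMI1, and for RNF168 and POLQ below, all 21 alternatives kept the call.

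The remaining calls were RNF168 (0.22 ± 0.05002), PALB2 (0.22 ± 0.0724), POLQ (0.20 ± 0.0477), BRCA1 (0.18 ± 0.0518), ATR (0.15 ± 0.0404), CLSPN (0.12 ± 0.0437) and TOPBP1 (0.11 ± 0.03603), in addition to BLM. POLQ had 87.7, 96.2 and 95.9 CPM in IFNγ against 79.4, 83.5 and 80.8 CPM in untreated libraries. All 12 genes had IFNγ libraries wholly above the untreated ones, and 14 of the 38 did so, against 19.8% of all genes. The call of BRCA1 ended with library totals (0.13), or without untreated replicate 1 (0.13) or IFNγ replicate 1 (0.15). The call of PALB2 ended with library totals (0.17), with upper quartile factors (0.18), in DESeq2 (0.22), or without IFNγ replicate 3 (0.17). That of BLM ended with library totals (0.12), with upper quartile factors (0.13), in DESeq2 (0.18), or without untreated replicate 1 (0.13), IFNγ replicate 1 (0.14) or IFNγ replicate 3 (0.16). TOPBP1 lost its call with library totals (0.05), with upper quartile factors (0.06), or without IFNγ replicate 3 (0.08), and ATR with library totals (0.09). CLSPN was the least stable, and its call ended with library totals (0.06), with upper quartile factors (0.07), in DESeq2 (0.12), with only the groups compared in the fit (0.12), or without untreated replicate 1 (0.09), untreated replicate 3 (0.12), IFNγ replicate 1 (0.10) or IFNγ replicate 3 (0.11). Neither ATM (0.10 ± 0.0467) nor CHEK2 (0.13 ± 0.0872), the 2 genes higher after radiation, was called after IFNγ.

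With radiation in both groups the effect of IFNγ was measured again, as combination against irradiated cells, in libraries not used in the first IFNγ comparison. Here 8 of 38 genes were called higher, where 14.5% of all genes were, and 0 lower, where 12.4% were, also 0 at an unadjusted p under 0.05 and in DESeq2. The share of higher genes among all called genes was 53.9%, and 38.03% with library totals and 34.8% with upper quartile factors. RMI2 led, with 10.1, 10.7 and 11.2 CPM in combination against 6.55, 5.72 and 6.03 CPM in irradiated libraries (0.81 ± 0.126, adjusted p = 6.96e-07). NBN had 114, 114 and 123 CPM in combination against 85.7, 83.05 and 84.5 CPM in irradiated libraries (0.47 ± 0.0437). H2AFX followed at 0.37 ± 0.05196 and BRCA2 at 0.34 ± 0.06205, and POLQ (0.19 ± 0.0471), CLSPN (0.18 ± 0.0531) and TOPBP1 (0.17 ± 0.0392) rose by less. Of the 15 DNA replication markers 6 were called higher and 0 lower, with a summed level of 1543 to 1565 CPM in combination against 1304 to 1337 CPM in irradiated cells, and their part in the result was not tested. The 12 mitosis markers counted 8 higher and 0 lower, and their part was not tested either. In 14 of the 38 all combination libraries lay above all irradiated ones, against 20.5% of all genes. Of the 8 called, the 6 other than H2AFX and XRCC3 were called in both IFNγ comparisons. The sign was the same in 28 of 38 genes (73.7%) and in 70.6% of all genes tested, and the log2 fold changes had a Pearson r of 0.70 and a Spearman rho of 0.48 over the 38, against a Pearson r of 0.90 over all genes. The call of CLSPN ended with upper quartile factors (0.13), or without irradiated replicate 1 (0.16). XRCC3 was called higher (0.29 ± 0.101), and this ended with library totals (0.25), with upper quartile factors (0.24), in DESeq2 (0.29), or without irradiated replicate 2 (0.28), irradiated replicate 3 (0.20) or combination replicate 3 (0.22), while KLC1 on the opposite strand changed by -0.02 ± 0.0381.

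**Figure D5:**
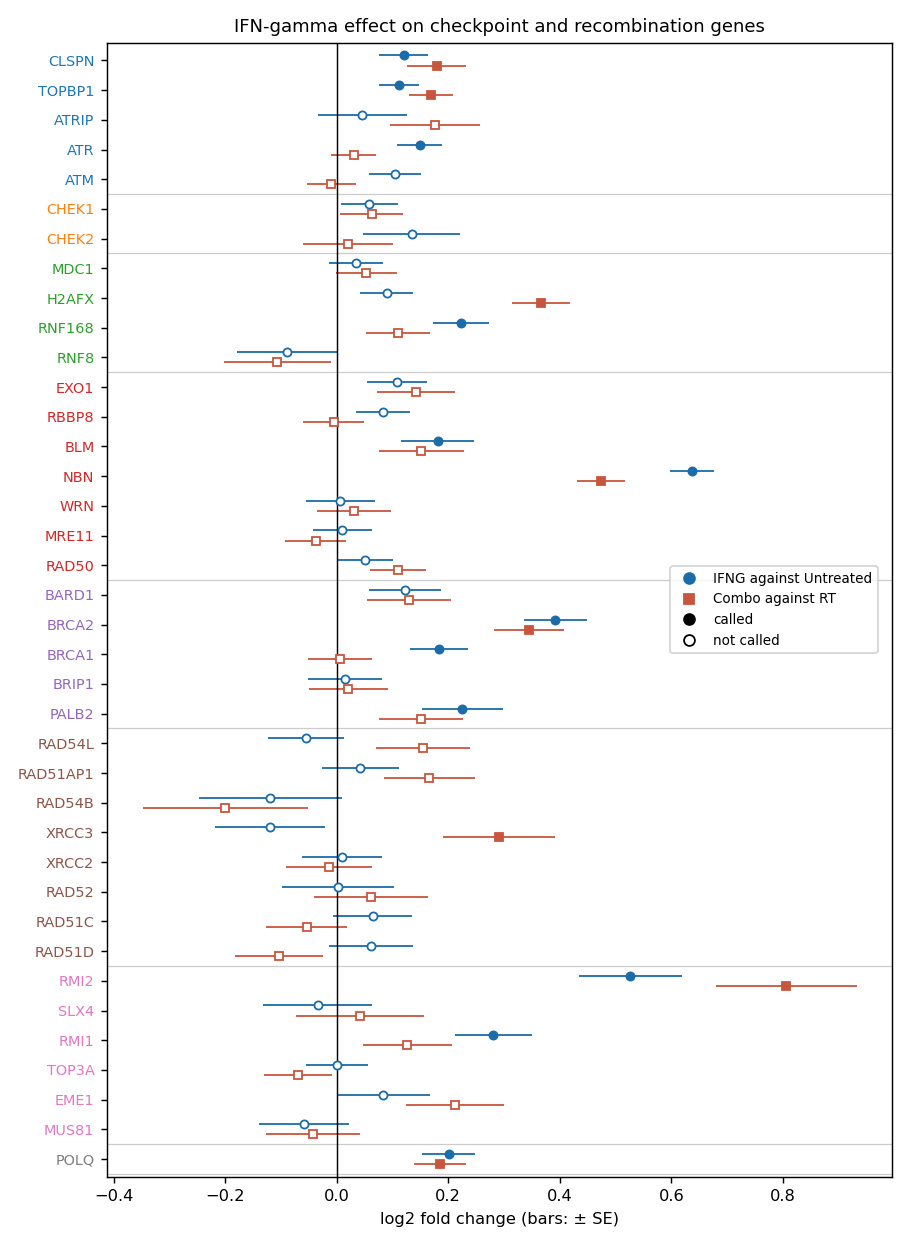
Points give the log2 fold change and bars ± SE of IFNγ without radiation (blue circles) and with radiation (red squares) for the 38 genes, in the order of the plot of the radiation effect. Filled points were called, and all of them lie right of 0, with NBN and RMI2 farthest out in both.

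Combination cells were set against untreated ones, to take both treatments together. Most genes were lower: 24 of 38 were called lower and 4 higher, where 31.2% of all genes were called lower and 30.9% higher, with a median of -0.26 for the 38 and -0.0014 over all genes. EXO1 (-0.86 ± 0.0606), CLSPN (-0.76 ± 0.0477) and RAD54L (-0.66 ± 0.0744) fell most. ATM (0.42 ± 0.0453), CHEK2 (0.34 ± 0.0842), POLQ (0.26 ± 0.0473) and RAD50 (0.12 ± 0.0499) rose, and the call of RAD50 ended with library totals (0.10), with upper quartile factors (0.08), in DESeq2 (0.12), with only the groups compared in the fit (0.12), or without untreated replicate 1 (0.05), combination replicate 1 (0.10) or combination replicate 3 (0.12). POLQ had 99.1, 92.9 and 100.5 CPM in combination against 79.4, 83.5 and 80.8 CPM in untreated libraries, with no overlap. NBN averaged 117 ± 4.803 CPM in combination and 120.5 ± 3.51 CPM in untreated cells (SD, n = 3 each) and was not called (-0.04 ± 0.0414), BRCA2 averaged 65.9 ± 7.55 and 68.1 ± 2.57 CPM and was not called (-0.05 ± 0.05895), and RMI2 averaged 10.7 ± 0.551 and 13.6 ± 0.677 CPM and was called lower (-0.35 ± 0.105). A missed call does not show that these levels are equal. Among calls near the threshold, that of MUS81 (-0.18 ± 0.0814, adjusted p = 0.04997) ended with DESeq2 size factors in edgeR (-0.18), in DESeq2 (-0.18), with only the groups compared in the fit (-0.18), with a dispersion estimate that was not robust (-0.18), or without untreated replicate 1 (-0.17), untreated replicate 3 (-0.12), IFNγ replicate 1 (-0.18), IFNγ replicate 2 (-0.18), irradiated replicate 1 (-0.18), irradiated replicate 2 (-0.18), irradiated replicate 3 (-0.18), combination replicate 1 (-0.10) or combination replicate 2 (-0.17). That of MRE11 (-0.17 ± 0.0536) ended without untreated replicate 2 (-0.10), and that of BRIP1 (-0.20 ± 0.0676) without untreated replicate 3 (-0.16) or combination replicate 2 (-0.13).

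The interaction asked whether the combined effect departed from the sum of the separate effects on the log2 scale. It was called positive for 1 of 38 genes, where 1.38% of all genes were, and negative for 0, where 0.995% were. H2AFX had a log2 interaction of 0.28 ± 0.0708 (adjusted p = 0.02395), so that its radiation effect was -0.29 with and -0.57 without IFNγ. This call ended in DESeq2 (0.28), or without untreated replicate 1 (0.19), IFNγ replicate 2 (0.26), IFNγ replicate 3 (0.25), irradiated replicate 1 (0.26), irradiated replicate 2 (0.28), combination replicate 2 (0.27) or combination replicate 3 (0.26). At an unadjusted p under 0.05, 2 of the 38 were positive and 3 negative. DESeq2 called 0, but gave no adjusted p for 5 of the 38, which could not be called. Among all called genes 58.1% were positive, and 69.4% with library totals. The largest value was that of XRCC3 (0.41 ± 0.141, adjusted p = 0.118), and RMI2 (0.28 ± 0.158) and NBN (-0.16 ± 0.05899), which responded most to IFNγ, were not called. The median over the 38 was -0.0055, against -0.0015 over all genes tested.

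Other genes of the pathway, from a list written with earlier results of these data known, counted more genes lower than higher after radiation, as the 38 did. Of 24 listed checkpoint partners 23 were tested, and 13 fell and 3 rose in irradiated against untreated cells. The fork protection factor TIPIN (-1.46 ± 0.108), the scaffold PAXIP1 (-0.94 ± 0.0819) and RAD9A, a subunit of the clamp that helps TOPBP1 activate ATR (-0.75 ± 0.158), changed most. Of 34 recombination partners 32 were tested, and 16 fell and 4 rose. The helicase RTEL1 (-1.001 ± 0.0835) and the deubiquitinase USP1 (-0.89 ± 0.04303) were among the largest decreases. In IFNγ against untreated cells the checkpoint partners counted 3 higher and 0 lower and the recombination partners 10 higher and 0 lower. Their medians were -0.19 and -0.19 after radiation and 0.07 and 0.13 after IFNγ, on the log2 fold change scale. The background shares of called genes given above for these comparisons apply to these counts.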

How the data were processed

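Total RNA of HT1080 cells was sequenced after depletion of ribosomal RNA, as stranded paired-end libraries, per the labels' protocols. The series' design text names an mRNA protocol instead. The deposited values are whole-number read counts per gene, not normalized. The submitters' processing notes name TopHat2 2.0.13 and Cuffdiff 2.2.1, beside FastQC 0.11.3 and Cufflinks, and the build hg19/GRCh37. What counted the reads, with which annotation and strand setting, is not given in the sources used here, so reads of overlapping genes may be split between them.

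The 12 libraries (3 per group, 9675126 to 11010656 counts) were fitted together with edgeR 4.0.16 in R 4.3.3: filterByExpr, TMM factors, robust quasi-likelihood fit, 1 coefficient per group, Benjamini-Hochberg adjustment over 12160 genes, and a call at an adjusted p under 0.05. The common biological coefficient of variation was 2.71%. The 12 pairs of replicates differed by more than sampling noise (chi-square over degrees of freedom 1.14 to 2.75), so all 3 of each group were counted. The error of a log2 fold change, given as ± SE, is its size over the square root of the F statistic. The code was tested on simulated counts.

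Genes given per library were the 2 with the largest radiation effect in each role, all those called in IFNγ against untreated cells or in the interaction, and all those called higher in irradiated cells. The members and lists were chosen with earlier results of these data known. Exon lengths and overlaps come from GENCODE 29 (GRCh38), used for no coordinates of the counts. The submitters' build differs, so no counted interval is given. Alternatives were other scalings, filters and fits, DESeq2 1.42.0, a replicate block and leaving out each library. Values of 1 gene of the recombination partner list are not reported here.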

Additional observations from a re-analysis of the deposited data

Results flagged for a closer look

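The radiation effect on H2AFX, the gene of the histone variant H2AX, differed between cells with and without IFNγ by a test of the difference itself. The log2 interaction was 0.28 ± 0.0708 (edgeR, adjusted p = 0.02395), from a radiation effect of -0.29 ± 0.0487 with IFNγ and of -0.57 ± 0.0512 without it, where all 3 libraries with radiation lay below all 3 without it in each comparison. The direction was kept in every alternative run, and the call ended in DESeq2 (0.28), or without untreated replicate 1 (0.19), IFNγ replicate 2 (0.26), IFNγ replicate 3 (0.25), irradiated replicate 1 (0.26), irradiated replicate 2 (0.28), combination replicate 2 (0.27) or combination replicate 3 (0.26). An interaction above 0 was not particular to H2AFX. The estimate was below 0 in 0 of 12 mitosis markers and 0 of 10 p53 target genes, against 50.4% of all genes tested. It was below 0 in 8 of 15 DNA replication markers, near the share over all genes, and in 8 of 8 IFNγ response genes. Few were called: 1 mitosis marker, 2 p53 target genes and 1 DNA replication marker positive, and 2 IFNγ response genes negative. Over all genes tested 1.38% were called positive and 0.995% negative.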

How the results depend on the processing

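None of the results changed direction while called. Of the counts of the 38 genes, those called higher by IFNγ were 6 with library totals in place of TMM, against 12. Those called higher in combination against IFNγ cells were 1 with DESeq2 and 1 with no filter on low counts, against 2, and the interaction called 0 with DESeq2, against 1. In the interaction DESeq2 gave no adjusted p for 5 of the 38. Over all genes the interaction called 159 with DESeq2, against 289. Leaving out each library in turn gave 8 to 12 of the 38 higher by IFNγ, 24 to 27 lower in irradiated against untreated cells, 26 to 29 lower and 1 to 2 higher in combination against IFNγ cells, 7 to 9 higher in combination against irradiated cells, and 22 to 25 lower and 3 to 4 higher in combination against untreated cells. The interaction called 0 to 1 of the 38 and 161 to 332 of all genes, with 161 without irradiated replicate 2 and 179 without combination replicate 2. The causes were not tested. Same-numbered replicates of different groups did not deviate together (18 correlations between -0.07 and 0.05, and 0 of 12 libraries closest to its own number), and with the replicate block the counts of the 38 were the same (12 higher by IFNγ, 27 lower by radiation) and the interaction called 276 genes. A fit of only the groups compared could not be run for the interaction, which needs all 4.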
